A study of Rattus norvegicus with 6 samples.

Results

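Potassium channel genes are those whose rat symbol starts with Kcn, and 91 of them were read by 122 probes on the array, out of 15443 named genes. Members were chosen by name alone: a probe belonged to the family when its RefSeq accession carried a Kcn symbol in the RefSeq gene table, and the brightest probe stood for a gene with several, as 26 genes had. The table lists 97 Kcn symbols, and the other 6 matched no probe, among them Kcnk7, Kcnu1 and the pseudogenes Kcnk16-ps1 and Kcnk6-ps1.

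Potassium channels let potassium leave the cell and so end the action potential and hold the resting potential. In heart muscle, voltage-gated (Kv) channels of pore-forming and accessory subunits carry the transient outward and delayed rectifier currents, inward rectifiers hold the resting potential and carry the acetylcholine-activated and ATP-sensitive currents, and 2-pore-domain channels carry background currents. Some Kv subunits form no channel alone and modify the current of a partner pore, while calcium-activated channels link the membrane potential to calcium.

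Total RNA of Sprague Dawley rats aged 13 weeks was hybridised to 6 one-colour arrays. The study examined adipose-derived stem cells (ADSCs), the mesenchymal progenitors of fat tissue, that carried the radioiodinated, membrane-staining label hexadecyl-4-124I-iodobenzoate (124I-HIB), both after injection into infarcted hearts and in culture. Infarcted myocardium injected with 124I-HIB-labelled ADSCs (treated below) had 2 arrays, numbered replicates 1 and 3. The other groups had 1 array each: infarcted myocardium injected with PBS, sham-operated myocardium, and labelled and unlabelled ADSCs after 14 days of culture. The labels time all the myocardium at 21 days, counted from the sham operation also for infarcted hearts. They do not say that the treated pair came from separate animals, nor whether the sampled tissue lay inside or outside the scar. A p-value therefore measures only the spread between these arrays, which may be technical. No arm received unlabelled cells or infarction with no injection, so an effect of the label in the heart cannot be told apart from that of the cells. Nor can an effect of infarction be told apart from that of the injection.

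A level below is the log2 of the processed signal minus the log2 of the array's 75th percentile, so 0 is the 75th percentile and 1 unit is 2-fold. A probe was called well above background on an array when the scanner software set that flag in most of its spots. The 75th percentile was a signal of 1276 and 1058 on the treated arrays, 1120 on PBS, 772 on sham, 2615 on labelled and 2360 on unlabelled ADSCs, and no spot was saturated. The markers bore out the labels as tissue kinds: all 10 ventricular and general cardiomyocyte markers were well above background on the 4 myocardial arrays, with summed levels of 2189 to 3242 times the 75th percentile, and the sum was 3.02 in labelled and 2.89 in unlabelled ADSCs. In the ADSCs, Myh6, Myh7, Myl2 and Myl3 were not well above background, all 5 mesenchymal stem cell markers were, and the fibroblast sum was 367 and 359, against 62.6 to 83.0 in myocardium. All mesenchymal markers but Thy1 were also well above background on the 4 myocardial arrays, so their detection alone did not set the kinds apart. Thy1, Cd44 and Itgb1 were higher in ADSCs by limma, while Nt5e and Eng did not pass. All 6 arrays lay on 1 slide and 1 scan, with the myocardial arrays in the first row and the cell arrays in the second, so slide row and kind of sample cannot be told apart.

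Promoter sequence is shown for the member furthest above and the member furthest below 0 in ADSCs against myocardium among those with a RefSeq promoter entry: Kcnq5, higher in ADSCs, and Kcnj5, lower. Each run is the 250 bases before the gene's start, 5′ to 3′ on the gene's strand, from RefSeq on GRCr8, with CG dinucleotides in capitals. The Kcnq5 window is chr9:31891282-31891531 and that of Kcnj5 is chr8:39011097-39011346, both on the minus strand.
Kcnq5: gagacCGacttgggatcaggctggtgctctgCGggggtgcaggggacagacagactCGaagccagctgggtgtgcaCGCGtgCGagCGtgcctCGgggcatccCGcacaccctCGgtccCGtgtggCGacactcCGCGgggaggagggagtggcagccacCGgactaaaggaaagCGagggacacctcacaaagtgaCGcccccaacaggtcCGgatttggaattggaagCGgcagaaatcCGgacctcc
Kcnj5: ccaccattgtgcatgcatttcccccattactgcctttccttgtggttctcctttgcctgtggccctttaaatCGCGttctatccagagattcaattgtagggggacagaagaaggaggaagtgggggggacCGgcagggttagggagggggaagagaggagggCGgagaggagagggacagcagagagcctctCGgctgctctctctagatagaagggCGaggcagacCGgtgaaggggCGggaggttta
The Kcnq5 window held 20 CG dinucleotides at a GC content of 65.2%, and the Kcnj5 window held 8 at 57.2%. RefSeq held 68 windows of 62 of the 91 members, with a median of 11.5 CG dinucleotides, against 5 over all 33469 windows of the table. At least 10 were present in 54.4% of the members' windows and in 35.9% of all windows. The 9 members higher in ADSCs had 7 windows (6 genes) with a median of 20, and the 38 lower ones had 27 windows (24 genes) with a median of 9. The letters CG read the same on both strands, and the counts describe these letters only.

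Of the 91 members, 58 were well above background on at least 1 array (63.7%, against 74.1% of all 27443 features), 26 on all 6 and 33 on none. On a single myocardial array 44 to 48 members were well above background (48.35% to 52.75%, against 61.6% to 64.84% of all features). On each ADSC array 35 were (38.46%, against 66.11% of all features in labelled and 67.05% in unlabelled ADSCs). By role, the 58 members were 21 of 29 voltage-gated pore subunits, 6 of 10 modifier Kv subunits, 9 of 17 accessory subunits, 8 of 15 inward rectifiers, 8 of 13 2-pore-domain channels and 6 of 7 calcium- and sodium-activated pore subunits. By the brightest probe, 16 members were well above background on all 4 myocardial arrays but neither ADSC array: Kcna2, Kcna4, Kcna5, Kcnd2, Kcnh2, Kcng2, Kcng3, Kcns2, Kcns3, Kcne1, Kcnip2, Kcnmb4, Kcnj1, Kcnj5, Kcnj11 and Kcnj12. On both ADSC arrays but no myocardial array 5 were: Kcnh6, Kcnq5, Kcnj9, Kcnk16 and Kcnt1. The shares of all features in these 2 patterns were not counted. The lowest level that passed the flag was -6.86 and -6.82 in labelled and unlabelled ADSCs and -5.94 to -5.62 in myocardium. Of the 5, Kcnq5 alone was over 2-fold higher in ADSCs by the bound defined below. Kcnk16 had a lower mean level in ADSCs (-5.94) than in myocardium (-5.49). From the list of cardiac channel genes, Kcnj2 and Kcnj4 (inward rectifiers of the resting potential), Kcne5, Kcnn2 and Kcnmb1 were not well above background on any array. Kcnj2 had levels of -5.87 and -5.71 on the treated arrays, -5.83 on PBS and -5.39 on sham, so its level was not measured.

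**Figure D1:**
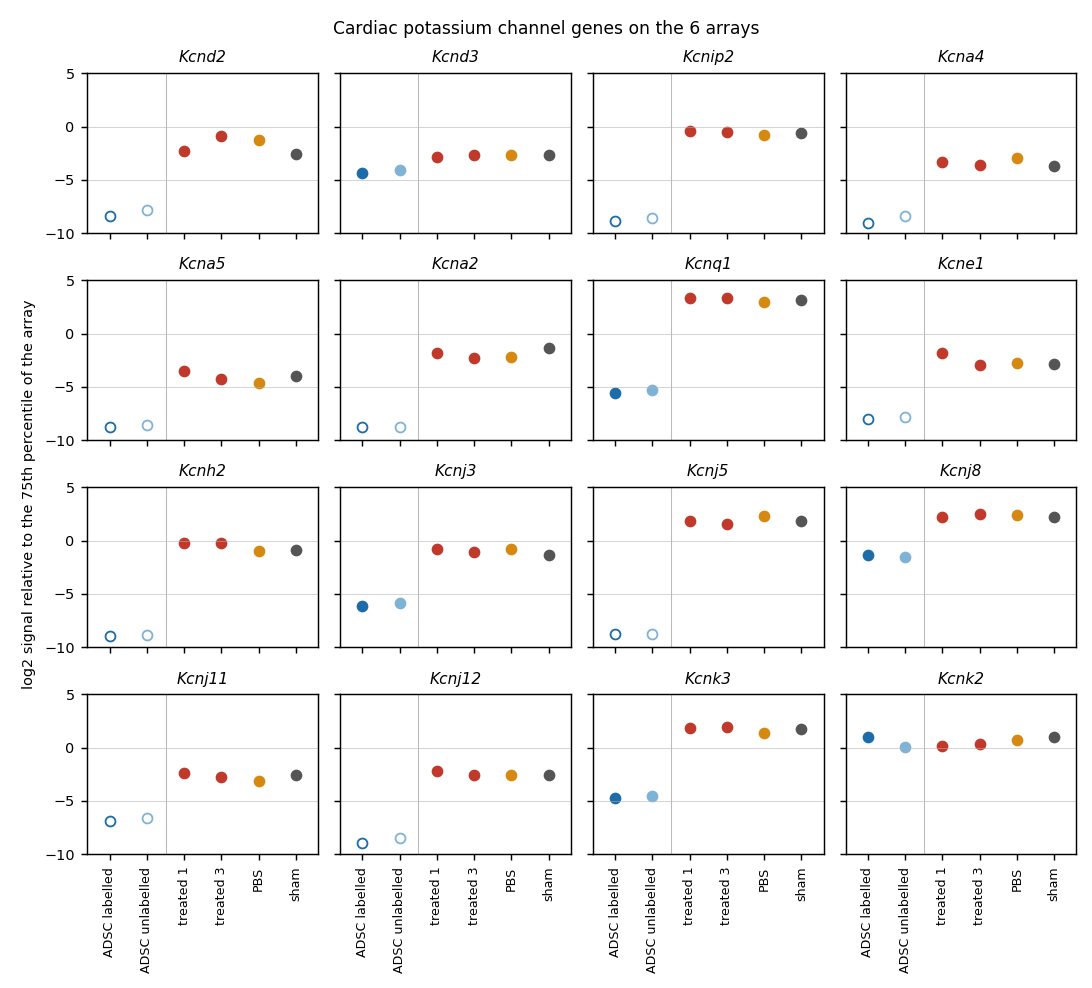
Levels of 16 cardiac potassium channel genes on the 6 arrays, 1 panel a gene. The vertical axis is log2 signal relative to the array's 75th percentile, each point is 1 array, and open points were not well above background. For 15 of the 16 genes both ADSC points lie below the 4 myocardial points, while Kcnk2 overlaps, and within myocardium Kcnd2 spreads most (-2.59 to -0.87). The 16 were picked from the 33 genes of the cardiac channel list, so this count does not describe the list. Among listed genes not drawn but well above background on all 6 arrays, Kcne2 was higher in ADSCs, and Kcne4, Kcnk6 and Kcnma1 overlapped. Kcnj14, Kcnn1 and Kcnn3 were among those lower.

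The widest contrast in the family was between cultured ADSCs and myocardium. In limma's fit of all 6 arrays (mean of both ADSC groups minus mean of the 3 myocardial groups, adjusted over 20331 features), 47 of 58 tested members passed an adjusted p of 0.05, with 9 higher and 38 lower in ADSCs. Over all features 68.3% passed, 33.4% higher and 34.9% lower, so the directions were near even there. The median member difference was -1.91 log2, and that over all features was 0.00. Among the 26 members well above background on all 6 arrays, 5 were higher and 16 lower, and 67.8% of such features passed in either direction. The members that did not pass included Kcnb2, Kcnc4, Kcnh3, Kcnh6, Kcne4, Kcnj9, Kcnk2, Kcnk6, Kcnk16 and Kcnma1. Bulk tissue was measured, so fewer cells of a type and less RNA per cell cannot be told apart.

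Genes of the transient outward current differed in both directions. Kcnd2, a Kv pore subunit of the fast transient outward current, had levels of -8.39 and -7.81 in labelled and unlabelled ADSCs (not well above background), against -2.27 and -0.87 on the treated arrays, -1.30 on PBS and -2.59 on sham. Kcnd3, its close relative, had levels of -4.33 and -4.11 in the ADSCs and -2.89, -2.66, -2.69 and -2.66 on the treated, PBS and sham arrays. Kcnd1, the third of these pore genes, was at 0.12 and 0.25 in ADSCs, against -3.99, -4.07, -3.89 and -4.15 in the same order. All ADSC values of Kcnd1 thus lay above the myocardial ones, while those of Kcnd2 and Kcnd3 lay below. By limma, Kcnd1 was 18.5-fold higher in ADSCs (4.21 ± 0.12 log2, SE, adjusted p = 0.000571) and Kcnd3 2.85-fold lower (-1.51 ± 0.14, adjusted p = 0.00362). The other Kcnd3 probes, well above background on every array, differed by -2.34, -0.48 and -0.57. Kcnd2 was at least 33.8-fold lower, by a bound: the mean of the bright arrays is set, for each dim array, against the lowest signal of any probe that passed the flag or against the dim probe itself, whichever is higher. Such a bound holds against that signal only, which is not a detection limit, since probes with higher signals also failed the flag.
Kcnip2, the calcium-sensing partner of these pores, was at -8.91 and -8.60 in ADSCs and at -0.42, -0.48, -0.80 and -0.57 on the treated, PBS and sham arrays, at least 77.1-fold lower in ADSCs. Kcnip3, a calcium-binding relative also known as a transcriptional repressor, went the other way (1.74 ± 0.12, adjusted p = 0.00212), with levels of -3.77 and -3.58 in ADSCs and of -5.74 to -5.02 in myocardium, where it was well above background on sham alone, and its call was lost with normexp (0.20, adjusted p = 0.158).

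The pore genes of the slow and rapid delayed rectifier, Kcnq1 and Kcnh2, were lower in ADSCs. Kcnq1, the pore of the slow delayed rectifier, had levels of -5.61 and -5.26 in labelled and unlabelled ADSCs and of 3.32, 3.30, 3.00 and 3.16 on the treated, PBS and sham arrays, with every array well above background. That was a 386-fold difference (-8.59 ± 0.12, adjusted p = 0.000366) by the brightest probe. A second Kcnq1 probe, also well above background on every array, differed by only -3.38 log2. Kcne1, the accessory subunit of Kcnq1, was at least 19.0-fold lower in ADSCs. By its brightest probe Kcnh2, the pore of the rapid delayed rectifier, was at least 76.6-fold lower. The second Kcnh2 probe was well above background on every myocardial array and in labelled ADSCs (-6.54), but not in unlabelled ones (-6.82). It differed by -4.38 log2, so the bound holds for the brightest probe only. The shaker-type genes Kcna2, Kcna4, Kcna5, Kcna6 and Kcna7 were all lower, by bounds of at least 30.5-fold for Kcna2, 10.9-fold for Kcna4 and 6.62-fold for Kcna5 and by 15.6-fold for Kcna7. Kcna6 was the weakest of them (-0.49 ± 0.12, adjusted p = 0.0355), and with the mean over both of its probes it turned to 0.55 (adjusted p = 0.0570).
Against that direction, Kcnq5, a Kv pore subunit of the same subfamily as Kcnq1, was at -4.31 and -4.48 in ADSCs and between -7.90 and -6.98, not well above background, in myocardium. By this brightest probe it was at least 2.62-fold higher in ADSCs, and limma gave 3.12 ± 0.15 (adjusted p = 0.00109), which fell to 0.20 with normexp background correction (adjusted p = 0.249). A second Kcnq5 probe was not well above background on any array, and its measured difference was 0.39. Kcnh1, an ether-a-go-go pore gene, was 3.25-fold higher in ADSCs (1.70 ± 0.16, adjusted p = 0.00368) and also lost its call with normexp (0.23, adjusted p = 0.111).

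By the brightest probe, all 6 tested modifier Kv subunits were lower in ADSCs. For Kcng1 the second probe, well above background in labelled ADSCs alone, differed by 1.20, against -1.52 for the brightest. With the mean over both probes the Kcng1 call was lost (limma adjusted p = 0.292). Kcng2, which alters the current of a partner Kv pore, had levels of -7.34 and -6.93 in ADSCs and of 2.77, 2.74, 2.89 and 2.73 on the treated, PBS and sham arrays, at least 786-fold lower. Its 4 myocardial values lay within 0.16 of each other. Kcns3, another such modifier, was at least 24.2-fold lower, Kcns2 at least 6.85-fold and Kcng3 at least 5.78-fold.
Among accessory subunits, Kcne2 was 2.17-fold higher in ADSCs (1.12 ± 0.12, adjusted p = 0.00489), with levels of -1.76 and -1.34 there and of -2.98 to -2.32 in myocardium. Kcnmb2, a beta subunit of the large-conductance calcium-activated channel, was 12.9-fold lower (-3.69 ± 0.12, adjusted p = 0.000647). A second Kcnmb2 probe, well above background on every array, differed by -2.29. Kcnmb4, another beta subunit of that channel, was at least 16.2-fold lower. The pore of that channel, Kcnma1, differed little between the kinds: -2.99 and -2.94 in ADSCs, against -3.29, -3.00, -2.54 and -2.07 on the treated, PBS and sham arrays (-0.38 ± 0.16, adjusted p = 0.106).

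Of 8 inward rectifiers tested, 7 were lower in ADSCs and none higher. Kcnj5, a subunit of the acetylcholine-activated channel, had levels of -8.79 and -8.75 in ADSCs and of 1.80, 1.60, 2.35 and 1.81 on the treated, PBS and sham arrays. By this brightest probe it was at least 424-fold lower. The second Kcnj5 probe was far dimmer in myocardium, at -5.19, -5.04, -4.35 and -4.96 in the same order. It was not well above background in ADSCs, and its measured difference was -4.16. Kcnj3, the partner of Kcnj5, stayed well above background in both kinds, 31.4-fold lower in ADSCs (-4.97 ± 0.16, adjusted p = 0.000634). Its levels were -6.15 and -5.86 in ADSCs and -0.77, -1.07, -0.81 and -1.37 in the same order. The pore genes of the ATP-sensitive channel also differed from each other in their readout. Kcnj8 was well above background everywhere, at -1.32 and -1.50 in ADSCs and 2.21, 2.46, 2.41 and 2.21 in myocardium (13.3-fold lower, -3.73 ± 0.15, adjusted p = 0.00084). Kcnj11 was not well above background in ADSCs and was at least 16.4-fold lower there. Kcnj12, an inward rectifier of the resting potential, was at least 20.3-fold lower, and Kcnj14, of the same subfamily, 2.33-fold lower (-1.22 ± 0.15, adjusted p = 0.00648).

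The 2-pore-domain genes held 3 of the 9 higher members and 2 of the 38 lower ones. Kcnk12 had levels of 1.66 and 1.67 in labelled and unlabelled ADSCs and of -4.62, -4.85, -5.15 and -4.87 on the treated, PBS and sham arrays. All 6 were well above background, and the difference was 96.0-fold (6.59 ± 0.14, adjusted p = 0.000404). Its close relative Kcnk13 was 1.53-fold higher in ADSCs (0.61 ± 0.12, adjusted p = 0.0195), a call that did not hold with normexp (0.03, adjusted p = 0.807). Kcnk5, an acid-sensitive background channel gene, was 1.93-fold higher (0.95 ± 0.14, adjusted p = 0.00950).
Kcnk3, an acid-sensitive background channel gene of cardiac muscle, was at -4.72 and -4.53 in ADSCs, against 1.83, 1.92, 1.35 and 1.76 in myocardium, 78.0-fold lower (-6.28 ± 0.12, adjusted p = 0.000381). Kcnk2, a stretch-sensitive background channel gene, was at 1.00 and 0.09 in ADSCs and 0.18, 0.34, 0.72 and 1.02 in myocardium, so the kinds overlapped (-0.13 ± 0.13, adjusted p = 0.444).
Of the calcium- and sodium-activated pore genes, Kcnn1, Kcnn3, Kcnn4 and Kcnt2 were lower. Kcnt1, a sodium-activated channel gene, was higher by 1.18 ± 0.12 (adjusted p = 0.00434) but lower with normexp (-0.59, adjusted p = 0.00225), and it was well above background on the ADSC arrays alone.

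**Figure D2:**
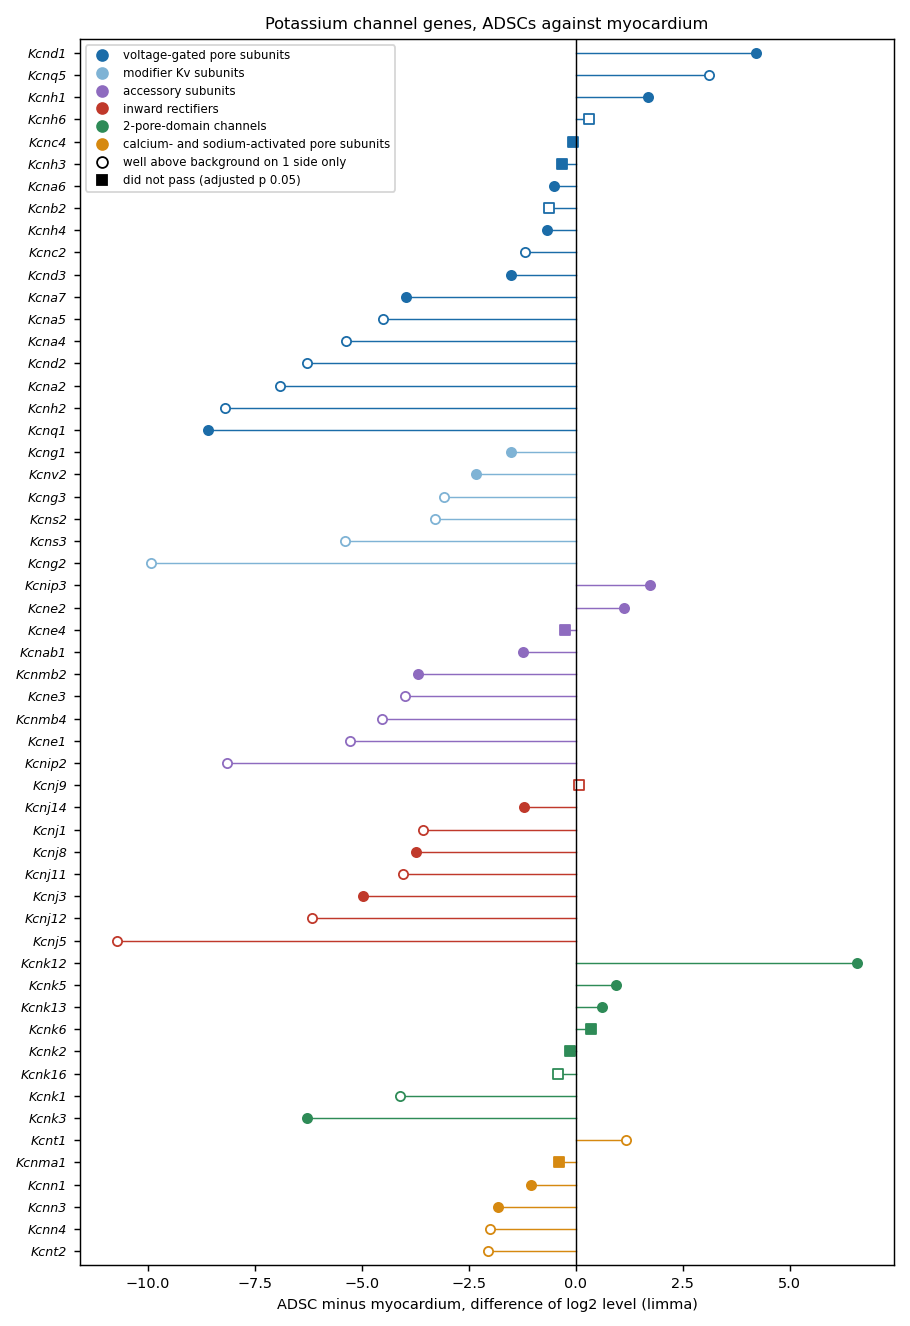
Difference between ADSCs and myocardium for 55 of the 58 tested potassium channel genes, from limma, on a horizontal axis of log2 difference (ADSC minus myocardium), grouped and coloured by role. Circles passed an adjusted p of 0.05 and squares did not, and open symbols were well above background on one side only. Differences run from -10.72 for Kcnj5 to 6.59 for Kcnk12, with 36 of the 45 passing members drawn left of 0.

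Other genes of the channels' pathway were read from a list of 38, of which 33 were on the array and 29 were tested here. In ADSCs 18 were lower, among them Abcc8 and Abcc9 (sulfonylurea receptors of the ATP-sensitive channel), Chrm2 (the muscarinic receptor that opens the acetylcholine-activated channel), Irx4 and Irx5 (homeobox factors of ventricular patterning), and Hcn2 and Hcn4 (pacemaker channels). Higher in ADSCs were 5: Gnai2, Gnai3, Gnb1 (G protein subunits), Atp1b3 (a sodium pump subunit) and Sgk1 (a kinase that regulates channels). Over all features 34.9% were lower and 33.4% higher. Of the 47 passing members, 35 passed in every alternative run for this contrast. The spread behind these p-values came from the treated pair alone, with 1 residual degree of freedom.

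Within myocardium most members kept within a 2-fold range. Of 42 members well above background on all 4 myocardial arrays, 35 (83.3%) did so, against 93.4% of all features, and the median range was 0.58 log2, against 0.39. The members with a wider range were Kcna5, Kcnab1, Kcnd2, Kcne1, Kcnj14, Kcnma1 and Kcnv2. The comparisons that follow share arrays, so their values are given side by side and not as independent results.

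PBS-injected infarct and sham had 1 array each, so infarction, injection and the single sample cannot be told apart. For PBS against sham, 2 of 43 measured members were 2-fold apart: Kcnd2 higher and Kcnv2 lower on PBS. Over all features 3.28% were (1.99% higher, 1.29% lower), so the members' 4.65% lay near the background. The median member difference was -0.04, against -0.05 over all features. Kcnd2 was at -1.30 on PBS and -2.59 on sham (2.44-fold higher), and its second probe, read from 10 spots, was at -2.88 and -4.09. On the treated arrays Kcnd2 was at -2.27 and -0.87 (mean -1.57 ± 0.99, SD, n = 2), so replicate 3 lay above PBS, and replicate 1 lay between PBS and sham. Kcnv2, a modifier of Kv pores known from the retina, was at -3.45 on PBS and -1.84 on sham (3.06-fold lower). On the treated arrays it was at -4.14 and -2.54, below sham on both, and its second probe was not well above background on any array. With normexp the Kcnd2 difference was 0.93, under 2-fold, and with the mean over its probes that of Kcnv2 was -0.91. This comparison was not tested, and the PBS value of each gene lay between the 2 treated values.

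Among members well above background on PBS but not on sham, 3 had a bound over 2-fold. The share of all features with such a bound was not counted, so whether 3 is many cannot be said. Of all features, 64.54% were well above background on PBS and 61.6% on sham. Kcnk1, a background channel gene, was at least 2.96-fold higher on PBS, Kcne3, a Kv accessory subunit, at least 2.27-fold and Kcnn4, the intermediate-conductance calcium-activated channel gene, at least 2.25-fold. Kcnn4 had 1 of its 2 sham spots flagged as well above background, at a signal of 31.0 beside 15.3. The treated arrays had Kcnk1 at -4.71 and -5.17, Kcne3 at -5.04 and -4.51 and Kcnn4 at -4.53 and -4.21, in each case below the PBS level (-3.88, -4.44 and -3.98) and above that of sham (-5.45, -5.74 and -5.15). From the pathway list, Irx4 (1.35 on PBS and 0.29 on sham) and Gnao1, a G protein subunit (0.35 on PBS and -1.14 on sham), were over 2-fold higher on PBS and Hcn2 (-3.72 on PBS and -2.60 on sham) over 2-fold lower, out of 28 measured.

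The PBS array stood apart in markers of other cell types. The summed level of the 6 atrial cardiomyocyte markers was 449 on PBS, against 165 and 142 on the treated arrays and 168 on sham, and all 6 were well above background on PBS alone, while Mybphl and Bmp10 were not on the other 3. The neuron and Schwann cell sum was 1.76 on PBS, against 0.745 and 1.12 on treated and 0.871 on sham, and the erythroid sum was 3.08, against 6.49 and 7.07 on treated and 6.73 on sham. The mesothelium sum was 2.28 on PBS and 0.371 to 0.431 on the other 3. Most of the atrial sum on sham and treated came from Myl4, while Myl7 was at 2.02 and 0.83 on treated and -0.47 on sham. Acta2, a smooth muscle marker, was 3.84-fold higher on PBS (-0.07, against -2.01 on sham), and Cdh5, an endothelial marker, was 2.36-fold lower (-1.43, against -0.19 on sham), while the smooth muscle and endothelium sums of the 4 myocardial arrays ranged from 42.5 to 48.9 and from 22.4 to 27.4. The part of these cell types in the PBS values of Kcnd2, Kcnv2, Kcnk1, Kcne3, Kcnn4 and the other members was not tested, here or for treated against PBS.

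**Figure D3:**
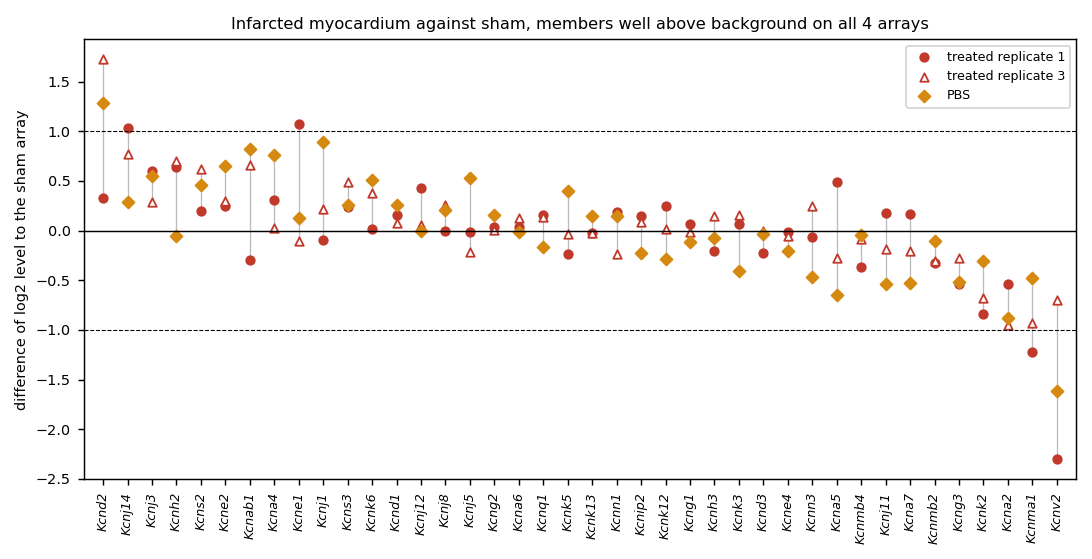
Differences of each infarcted array to the sham array for 40 of the 42 members well above background on all 4 myocardial arrays, as log2 level, ordered by their mean over the 3 infarcted arrays. Filled circles and open triangles are treated replicates 1 and 3, diamonds are PBS and dashed lines mark 2-fold. Most members sit inside the dashed lines on all 3 arrays, and Kcnd2 (0.33, 1.72 and 1.29) and Kcnv2 (-2.30, -0.70 and -1.62) spread furthest.

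For treated against PBS, both sides were injected infarcts, with labelled cells or with PBS. The PBS side was the 1 array that stood apart in markers, so an effect of the cells cannot be told apart from that sample. None of 45 measured members was 2-fold apart on both treated arrays, against 1.16% of all features (0.4% higher, 0.758% lower). By limma none of 52 tested members passed, against 0.0589% of 18660 features. On simulated data this fit recovered 0% of changes of 1 log2 and 64% of 2 log2, so no call does not mean no change. An unadjusted p under 0.05 was found for 8 members, against 9.92% of all. Among the 8 were Kcnh2, Kcnk3 and Kcnj14, higher on treated, and Kcnb2, Kcnk1, Kcnj1 and Kcnj5, lower, each with an adjusted p between 0.381 and 0.481. Of these, Kcnb2, a Kv pore gene, was well above background on PBS alone. Kcnj5 was at 1.80 and 1.60 on treated and 2.35 on PBS, with sham at 1.81, so PBS was the array that stood out. Kcnk3 was at 1.83 and 1.92 on treated and 1.35 on PBS, with sham at 1.76.
Kcnh2 was at -0.26 and -0.20 on treated, -0.96 on PBS and -0.90 on sham (0.73 ± 0.16 against PBS, limma adjusted p = 0.381). Its 2 spots differed over 2-fold on PBS and sham, with signals of 283 and 1175 on PBS and 260 and 658 on sham, against 982 and 1162 on treated replicate 1 and 772 and 1096 on replicate 3. The brighter spot was at 0.07 on PBS and -0.23 on sham, against -0.13 and 0.05 on treated. Its second probe, read from 1 spot and well above background on all 4 arrays, was at -1.99 and -2.31 on treated, -2.45 on PBS and -2.43 on sham, a smaller difference of the same sign (0.30 against PBS and 0.28 against sham). Among the 243 member readings whose spots were all well above background, 3 had spots 2-fold apart, and 2 of those 3 were these.

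For treated against sham, none of 42 measured members was 2-fold apart on both treated arrays (0.872% of all features were, 0.506% higher and 0.366% lower). By limma none of 52 tested members passed, nor did any of 18660 features, and 10 members had an unadjusted p under 0.05, against 10% of all features. Kcnma1, the large-conductance calcium-activated channel pore, came closest to the 2-fold rule, at -3.29 and -3.00 on treated, -2.54 on PBS and -2.07 on sham (2.11-fold lower than sham, -1.08 ± 0.21, limma adjusted p = 0.400). Kcnj14 was at -1.49 and -1.75 on treated, -2.23 on PBS and -2.52 on sham (0.90 ± 0.20 against sham, adjusted p = 0.410). For both genes the treated values lay on one side of both PBS and sham. Kcnk2 was at 0.18 and 0.34 on treated, 0.72 on PBS and 1.02 on sham (-0.76 ± 0.18 against sham, adjusted p = 0.423).
Across all 3 infarcted arrays against sham, none of 42 measured members was 2-fold apart on every array, against 0.601% of all features (0.35% higher, 0.252% lower). Pore genes of the ATP-sensitive channel differed by less than 2-fold on these arrays: Kcnj8 was at 2.21 and 2.46 on treated, 2.41 on PBS and 2.21 on sham, and Kcnj11 at -2.38, -2.74, -3.09 and -2.56 in that order.
The treated pair itself was 2-fold apart for 3 of 46 members (6.52%, against 1.27% of all features). Kcnd2 and Kcnv2 were higher in replicate 3, and Kcne1 was lower there, at -1.79 in replicate 1 and -2.97 in replicate 3, with PBS at -2.74 and sham at -2.86. Without replicate 3, treated against sham had 4 members 2-fold apart (Kcne1, Kcnj14, Kcnma1 and Kcnv2), and without replicate 1 it had 1 (Kcnd2). That was out of 42 and 43 members, and over all features 1.98% and 2.13% were 2-fold apart, in the same order.

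For labelled against unlabelled ADSCs, the effect of the tracer in culture, none of 34 measured members was 2-fold apart, against 0.942% of all features (0.432% higher, 0.51% lower). The median difference was -0.19, against -0.03 over all features, with 7 members above 0 and 27 below. With quantile normalization the split was 12 above and 22 below and the median -0.12, and with the authors' deposited log2 values it was 11 and 23 at -0.13. Kcnk2 differed most, at 1.00 in labelled and 0.09 in unlabelled ADSCs (1.88-fold higher), and Kcnj14 was next among the higher members, at -3.10 in labelled and -3.58 in unlabelled ADSCs. Kcna7, a shaker-type pore gene, was lowest, at -5.73 in labelled and -5.11 in unlabelled ADSCs (1.54-fold lower). Kcnk12 and Kcnd1, both far higher in ADSCs than in myocardium, were at 1.66 and 0.12 in labelled cells and at 1.67 and 0.25 in unlabelled cells. From the pathway list, Hcn2 was 2-fold lower in labelled cells (-5.53 and -4.33, 1 of 22 measured genes), and these differences were not tested.

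**Figure D4:**
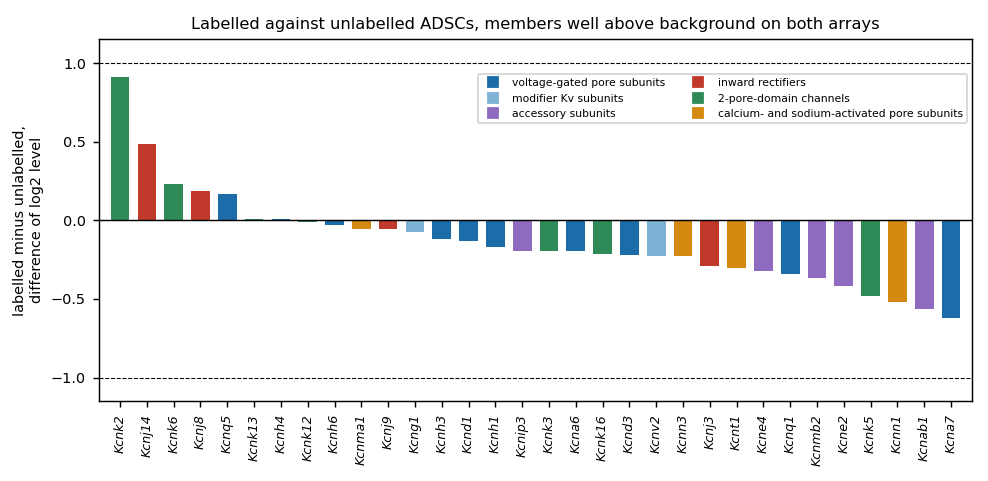
Labelled minus unlabelled ADSCs for 32 of the 34 members well above background on both arrays, as the difference of log2 level, 1 bar a gene coloured by role. Dashed lines mark 2-fold; bars run from 0.91 for Kcnk2 to -0.62 for Kcna7 and none crosses a line.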

How the data were processed

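Total RNA from tissue or cells was labelled with Cy3, per the labels' protocols. The authors deposited scanner output with intensity values (processed, median and background signal) for each array and a table of log2 values. The scanner software was Agilent Feature Extraction, version 11.0.1.1, as the submitters' notes state. The table followed log2 processed signal (r of 0.9992 or more). Its medians were 8.85 on each myocardial array and 9.67 on each cell array, so the kinds were normalized apart, and the sources used here do not give the method.

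Controls and spots with a feature outlier flag were dropped, log2 processed signal was taken relative to the array's 75th percentile, and spots of a probe were averaged. Accessions were matched to a RefSeq table (GRCr8, names only): 18355 of 30367 probes received a symbol, 12012 did not, and 13 probes were incomplete. This gave 27443 features, of which 15443 were named genes. Probes may be shared by close paralogs.

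Members, roles, lists and comparisons were chosen with earlier results of these data known. Named genes were members 2-fold apart or with a bound over 2-fold, the 10 largest each way against myocardium, the cardiac channel list, and pathway genes 2-fold apart. The 2-fold rule needs every array of the first-named side to pass, among features well above background on all arrays compared. limma 3.58.1 under R 4.3.3 (lmFit, eBayes, Benjamini-Hochberg adjustment) used features with at least 1 array well above background: 4 myocardial arrays in 3 groups, or all 6 in 5 groups. Both fits were run on simulated data. For changes of 1, 2 and 4 log2, treated against PBS recovered 0%, 64% and 98%. ADSCs against myocardium recovered 2%, 90% and 100%. Those data held 50 changed features of each size among 20331, while 68.3% of features passed in the real fit. The recovery therefore does not carry over to that contrast, where Kcnk5 passed limma at 0.95 log2 (adjusted p = 0.00950). Among unchanged features the simulations called 12 for ADSCs against myocardium and 4 for treated against PBS. The number of arrays limits the precision. Alternatives were normexp (offset 50, on median signal), quantile normalization, the deposited log2 values, the mean over probes, no filter on dim probes, a 1.5-fold threshold, a trended and robust spread, 2 kinds as the only factor, and each treated replicate left out. Marker sums not given in the report were, over the 4 myocardial arrays, 42.5 to 48.9 (smooth muscle), 7.87 to 8.61 (pericyte), 22.4 to 27.4 (endothelium), 1.19 to 1.35 (macrophage), 0.487 to 0.595 (T cell) and 5.57 to 6.12 (mesenchymal stem cell). A few members are counted but not named or drawn, since their own values are not reported here. Tables were handled with Python 3.11.15 and figures drawn with matplotlib 3.10.9.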

Additional observations from a re-analysis of the deposited data

How the results depend on the processing

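Counts of members 2-fold apart depended on the filter and the threshold. PBS against sham had 2, which became 1 with normexp (Kcnv2 only), 1 with the mean over probes (Kcnd2 only), 13 with no filter on dim probes and 9 at 1.5-fold. These were out of 43 members, or 91 with no filter. Over all features the share was 3.28%, which became 1.40%, 3.31%, 8.43% and 12.41% in the same order. The other comparisons had 0. With no filter they had 2 (treated against PBS), 4 (treated against sham), 3 (all infarcted against sham) and 7 (labelled against unlabelled), and at 1.5-fold 4, 5, 1 and 2 in the same order. Over all features the shares were 3.01%, 2.99%, 1.96% and 5.00% with no filter. At 1.5-fold they were 4.54%, 3.89%, 2.39% and 6.08%. Leaving out a treated replicate gave 1 to 2 for treated against PBS (Kcnk1 without replicate 1, Kcna5 and Kcnab1 without replicate 3), 1 to 4 for treated against sham and 1 either way for all infarcted against sham (Kcnd2 without replicate 1, Kcnv2 without replicate 3). Over all features the shares without replicate 1 were 2.29%, 2.13% and 0.953% in the same order. Without replicate 3 they were 2.67%, 1.98% and 0.795%. Counts under quantile normalization and the deposited values were the same as given. Counting a probe as well above background from 1 spot, an alternative chosen after seeing the data, gave 3 for PBS against sham, adding Kcnn4. That was 3 of 47 members, against 3.69% of all features.

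limma called 41 to 68 members in ADSCs against myocardium over its 8 alternatives, against 66.5% to 81.0% of all features. These were out of 57 or 58 members, or 91 with no filter on dim probes. The count of 68 came from the run with no filter, where 67.7% of all features passed. In both treated comparisons limma called 0 members over their 6 alternatives, against at most 0.375% of all features. Normexp moved the median of all features to -0.40, and quantile normalization moved it to 0.20, from 0.00; normexp also gave -0.13 for PBS against sham and -0.12 for treated against sham. The higher calls of Kcnh1, Kcnip3, Kcnk13 and Kcnq5 were the ones lost with normexp (limma adjusted p 0.111 to 0.807). These calls were tested against 0, not against the median of all features, which was -0.40 in that run. The reversed values were Kcnt1 with normexp (-0.59, adjusted p = 0.00225) and Kcna6 with the mean over probes (0.55, adjusted p = 0.0570). With normexp 5 members were higher and 48 lower out of 58, and 81.0% of all features passed in that run. Kcna6, Kcnab1, Kcnc2, Kcng1, Kcnh4, Kcnn1 and Kcnv2, all lower in ADSCs, each lost the call under 1 to 3 alternatives, with adjusted p of up to 0.806. The cause was not tested. The deposited values were not run for ADSCs against myocardium, since they were normalized separately. No paired analysis was possible because only the treated group had more than 1 array. Signal over background limits 33 members, for which no level was measured.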

Other observations

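Kcnk10, a 2-pore-domain channel gene, had 1 bright spot on the sham array: its 2 spots read signals of 1030 and 6.16, and its readings on the other 5 arrays lay between 5.74 and 13.9. Only the bright spot was flagged as well above background, so the gene was not counted as measured, and any large difference of its mean to sham rests on that spot. Kcnj10, an inward rectifier, had 2 spots of 4.46 and 182 on the labelled ADSC array, and it too was not counted as measured there. Of 46 member readings with some but not all spots well above background, 14 had spots 2-fold apart, against 3 of the 243 with all spots well above background.

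Where a member had several probes well above background, the direction of the brightest probe and of another was the same in 8 of 9 pairs for PBS against sham, 7 of 9 for treated against PBS, 4 of 8 for treated against sham, 8 of 10 for labelled against unlabelled ADSCs and 5 of 5 for ADSCs against myocardium. These counts compare direction only. In ADSCs against myocardium the size differed between probes, as for Kcnq1 (-8.63 and -3.38) and Kcnmb2 (-3.65 and -2.29).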
